A study of Mus musculus with 54 samples.

Results

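The Hox genes measured here are 38 of the 20665 protein-coding autosomal genes of the mouse, and they lie in 4 clusters: 10 in cluster A on chromosome 6, 10 in cluster B on chromosome 11, 9 in cluster C on chromosome 15 and 9 in cluster D on chromosome 2. They were chosen by gene name, with earlier results of these data known. Each was measured over its gene body with 1 kb on either side, which gave 1357 of the 9850971 autosomal windows of 250 bp. Neighbouring members are not independent, because 158 of those windows (11.6%) belong to more than 1 member. The Hoxa3 region of 46.25 kb contains those of Hoxa4, Hoxa5 and Hoxa6, and Hoxb3 and Hoxd3 overlap Hoxb4 and Hoxd4 in the same way. The regions of Hoxa5 and Hoxa6 also overlap each other, from chr6:52203751 to chr6:52205750.

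The study measured DNA methylation by MeDIP-seq, in which an antibody against 5-methylcytosine pulls methylated DNA fragments out of the genome before sequencing. Intestinal adenomas and normal intestinal mucosa came from mice with the Apc Min mutation, a truncating allele of the Wnt pathway gene Apc that gives rise to intestinal tumours, and normal mucosa came also from wild-type mice. All mice were 15 to 19 weeks old. The strains were C57BL/6 (B6), with 5 adenoma, 3 Apc Min mucosa and 4 wild-type libraries; the C57BL/6 x PWD F1 (B6xPWD), with 3 of each; C57BL/6 carrying chromosome 5 of PWD as a consomic strain (C5), with 3 of each; the F1 of that strain with C57BL/6 (C5F1), with 3 of each; the F1 of C57BL/6 with the consomic strain for chromosomes 1 and 5 (C1_5F1), with 2 adenoma and 2 Apc Min mucosa libraries; and PWD/Ph (PWD), with 3 wild-type libraries. No Hox cluster lies on chromosome 1 or 5, so by these labels the C5, C5F1 and C1_5F1 mice carry the C57BL/6 alleles of all 4 clusters, and B6xPWD mice carry 1 allele of each parent. Whether libraries of a group came from separate mice is not stated, so the p-values below measure the spread between libraries.

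Hox genes encode homeodomain transcription factors that give cells their identity along the head-to-tail axis. Within a cluster the low-numbered genes are used in anterior parts of the embryo and the high-numbered genes in posterior parts. Their promoters are rich in CpG sites and are classical targets of Polycomb repression, and in the adult gut the Hox code still differs between proximal and distal segments. Methylation at Hox promoters is frequently altered in tumours.

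Library totals ranged from 8358806 to 27842607 counts over the 46 MeDIP libraries. CpG-dense windows, those to which the authors gave a CpG density score of 10 or more, held 4.03% to 7.74% of a library's counts, and the 11 libraries whose label number begins with 16 held 4.03% to 5.94%. What that number stands for is not stated. For 1 sample of B6xPWD, numbered 11_6, the MeDIP library is labelled Apc Min mucosa and the input library of the same number wild type. Calls of members between B6xPWD and B6 in Apc Min tissue are therefore given without that library too. Single windows were not refitted without it, and the main adenoma differences of B6xPWD include it. The input library of adenoma 11_5, sequenced without antibody, held 7533091 counts. All levels below are CPM, the count of a library scaled by its autosomal total and its TMM factor. They are summed over the gene region or its CpG-dense windows, and given per kb where genes are compared with each other. The TMM factor was set separately for gene regions, CpG-dense parts and single windows. Cluster sums are not on the scale of the CpG-dense parts. In B6 wild-type library 16_8, CpG-dense Hoxa3 had 24.05 CPM and all CpG-dense windows of cluster A 21.24. The input library and the comparison by CpG density were scaled by totals alone. In bulk tissue a change in the methylation of each cell and a change in the mix of cells cannot be told apart.

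In the normal mucosa of wild-type B6 mice, captured methylation was higher at the anterior than at the posterior end of the clusters. The 14 members with numbers 1 to 5 had a median of 0.960 CPM per kb, the 8 members with numbers 6 to 8 a median of 0.337, and the 16 members with numbers 9 to 13 a median of 0.196. All gene regions had a median of 0.535 CPM per kb, with quartiles of 0.318 and 0.791. Of the anterior members 10 of 14 lay above that median, of the middle members 2 of 8 and of the posterior members 0 of 16. The median share of CpG-dense windows was 31.7%, 36.0% and 35.9%. The part of CpG density in the order of the levels was not tested. Within the CpG-dense windows alone the medians were 1.39, 0.301 and 0.159 CPM per kb. The order of the 3 medians was the same in all 15 groups. In PWD they were 0.579, 0.391 and 0.179, and in C5 wild type 1.10, 0.475 and 0.223.

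**Figure D1:**
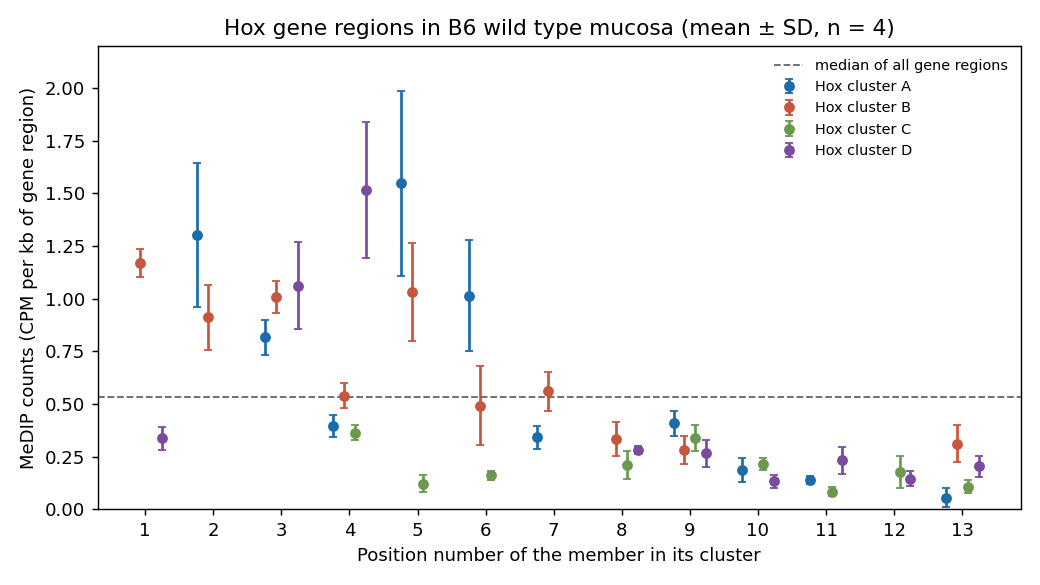
Captured methylation of each Hox gene region in wild-type B6 mucosa (vertical axis, CPM per kb, mean ± SD of 4 libraries) against the number of the gene within its cluster (horizontal axis), coloured by cluster, with the median of all gene regions as a dashed line. The members numbered 9 to 13 all lie below the median of all gene regions, 0.535 CPM per kb, while 10 of the 14 members numbered 1 to 5 lie above it.

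Cluster A spanned the widest range. Hoxa5, which patterns the lung and the gut mesenchyme, had the highest level of all members, 1.55 ± 0.440 CPM per kb (SD, n = 4), and stood at the percentile 98.2 of all gene regions. Hoxa13, a hindgut, limb and genital tract gene, had the lowest, 0.0543 ± 0.0443, at percentile 1.12. Between them, Hoxa2, a gene of the hindbrain and the pharyngeal arches, had 1.30 CPM per kb, Hoxa6 1.01, Hoxa3, needed for thymus and parathyroid, 0.817, and Hoxa4 0.394. The posterior members Hoxa9, a regulator of myeloid cells, Hoxa10 and Hoxa11, which pattern the uterus, had 0.409, 0.188 and 0.139, and Hoxa7 had 0.341. The promoters of the highest and the lowest member are both rich in CpG. They run from 250 bases before to 50 bases after the start of transcription and are shown with every CG dinucleotide in capitals (RefSeq, GRCm38.p6).
Hoxa5 promoter, chr6:52204538-52204837, minus strand: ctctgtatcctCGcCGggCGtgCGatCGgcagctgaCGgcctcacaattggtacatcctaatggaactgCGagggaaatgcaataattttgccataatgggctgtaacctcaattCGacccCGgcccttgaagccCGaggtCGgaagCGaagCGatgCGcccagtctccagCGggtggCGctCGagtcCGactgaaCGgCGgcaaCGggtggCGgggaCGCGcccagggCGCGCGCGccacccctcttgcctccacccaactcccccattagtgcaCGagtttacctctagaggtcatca
Hoxa13 promoter, chr6:52260831-52261130, minus strand: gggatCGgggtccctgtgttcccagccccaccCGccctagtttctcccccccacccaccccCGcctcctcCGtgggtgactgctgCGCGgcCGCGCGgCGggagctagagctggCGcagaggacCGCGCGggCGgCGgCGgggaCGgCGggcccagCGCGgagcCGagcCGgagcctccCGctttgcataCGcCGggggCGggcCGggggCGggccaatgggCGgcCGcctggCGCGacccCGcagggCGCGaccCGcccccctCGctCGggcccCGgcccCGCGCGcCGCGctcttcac
CG, the site of methylation, was the motif searched, and it reads the same on both strands. The Hoxa5 promoter holds 29 and the Hoxa13 promoter 45, counts reached by 12.9% and 1.93% of all 32851 promoters of that length, of which 94.6% hold at least 1. The windows over the Hoxa5 promoter carried 1.71 ± 0.847 CPM per kb in B6 wild type (SD, n = 4). Those over the Hoxa13 promoter carried 0 in all 4 of these libraries, and their highest value in any of the 46 was 0.125. RefSeq promoters were matched for 22 members, with 24 promoters in all, and held 4 to 45 CG with a median of 14.5, against 7 for all promoters. In cluster A those of Hoxa2, Hoxa7 and Hoxa9 held 9, 9 and 4.

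In cluster B the highest member was Hoxb1, a hindbrain gene, at 1.17 ± 0.0669 CPM per kb, and the lowest Hoxb9, a gene of the thoracic skeleton, at 0.281 ± 0.0685 (SD, n = 4 each). The levels along the cluster were 0.912 for Hoxb2, 1.01 for Hoxb3, 0.540 for Hoxb4, 1.03 for Hoxb5, 0.491 for Hoxb6, 0.560 for Hoxb7, 0.333 for Hoxb8 and 0.312 for Hoxb13. Cluster C was the least methylated, with a median of 0.175 over its members against 0.401 in A, 0.550 in B and 0.265 in D. Its range ran from Hoxc11 at 0.0826 ± 0.0220 to Hoxc4 at 0.363 ± 0.0356, so even its most anterior gene lay below the median of all genes. The other members of cluster C had 0.122 (Hoxc5), 0.163 (Hoxc6), 0.209 (Hoxc8), 0.340 (Hoxc9), 0.216 (Hoxc10), 0.175 (Hoxc12) and 0.108 (Hoxc13). In cluster D, Hoxd4 and Hoxd3, both of which shape the vertebrae of the neck, had 1.52 ± 0.323 and 1.06 CPM per kb. Hoxd1, the most anterior, had 0.336, and the lowest member was Hoxd10, a hindlimb motor neuron gene, at 0.133 ± 0.0321. Hoxd8, Hoxd9, Hoxd11, Hoxd12 and Hoxd13, the last 3 of them needed for the limb, had 0.281, 0.265, 0.232, 0.145 and 0.204. The order was not strict, since Hoxb7 lay above Hoxb4 and Hoxb6, and Hoxa9 above Hoxa4. All members of cluster C lay below the median of all genes.

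Set against windows of the same CpG density, Hox windows were low at intermediate density. With a score of 10 to 15, their median was 0.0820 CPM, against 0.307 for all autosomal windows, and 16.8% of them exceeded 0.5 CPM against 40.1%. At a score of 15 or more, the class of typical CpG islands, the Hox median of 0.0358 CPM was above the 0.0119 of all windows, and 14.6% exceeded 0.5 CPM against 9.47%. These are descriptions of 1 group of 4 libraries.

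The libraries of a group differed from each other at Hox genes more than at most genes. For the CpG-dense parts, edgeR's quasi-likelihood fit gave the members a median quasi-dispersion, a measure of the spread between libraries of a group beyond counting error and the fitted trend, of 1.31, against 0.896 for all genes. Of the 35 members tested at that level, 12 (34.3%) were among the most variable 5% of genes. Hoxb3 (20.4, percentile 99.99), Hoxb5 (12.4, percentile 99.98) and Hoxa6 (7.56, percentile 99.94) led. Hoxb6, Hoxb2, Hoxa5, Hoxd3, Hoxb1, Hoxb4, Hoxc4, Hoxa3 and Hoxd4 followed, all anterior or middle members, at percentiles from 99.92 down to 96.2. For the whole gene regions, 9 of 38 members (23.7%) were in the most variable 5%.

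**Figure D2:**
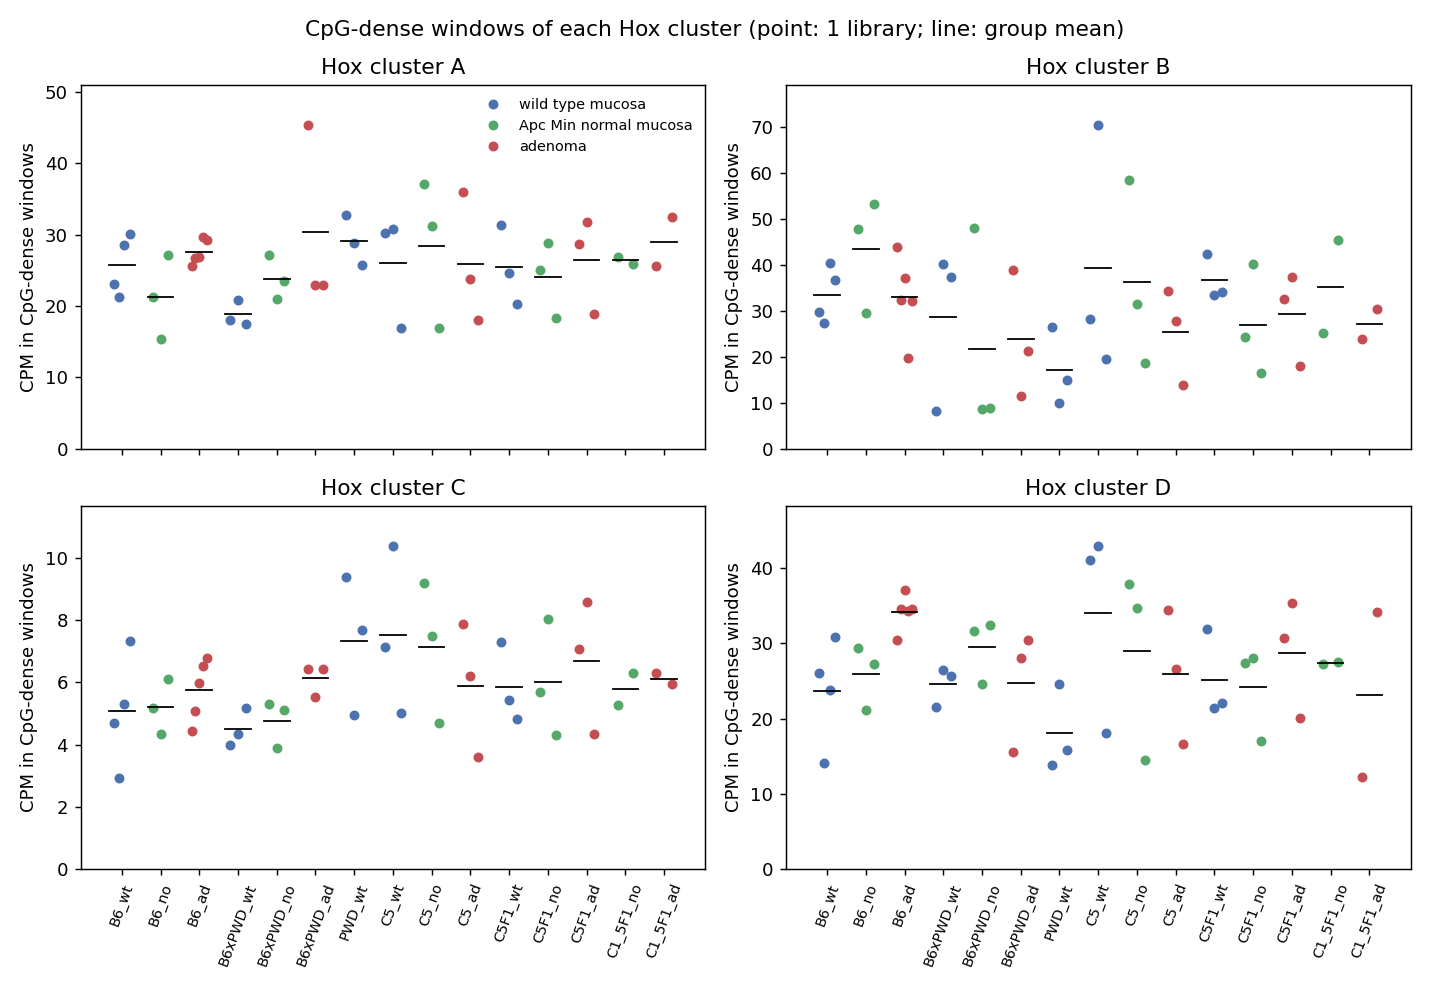
Captured methylation of the CpG-dense windows of each Hox cluster in each of the 46 libraries (vertical axis, CPM summed over the cluster), by strain and tissue (horizontal axis), with 1 panel per cluster. Points are libraries and lines are group means. Cluster B spans the widest range, from 8.13 to 70.3 CPM, while clusters A, C and D span ratios of 2.94, 3.54 and 3.51 from lowest to highest.

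Summed over their CpG-dense windows, the clusters differed in how far the 46 libraries spread. Cluster A (115 windows) ranged from 15.4 to 45.3 CPM with a median of 25.8, cluster C (87 windows) from 2.93 to 10.4 with a median of 5.61, and cluster D (100 windows) from 12.2 to 42.9 with a median of 27.3. Cluster B (113 windows) ranged from 8.13 CPM in B6xPWD wild type 11_3 to 70.3 in C5 wild type 12_11, with a median of 30.9 and a ratio of highest to lowest of 8.65. For all genes the median of that ratio was 2.64 over CpG-dense parts. The spread of cluster B grew with CpG density, with ratios of 2.11 below a score of 5, 3.66 from 5 to 10 and 8.65 from 10 upwards. The densest class spread most in the other clusters too. In the same order the ratios were 1.67, 1.90 and 2.94 in A, 2.24, 2.21 and 3.54 in C, and 1.79, 2.04 and 3.51 in D. By strain, the lowest, median and highest cluster B sums were 19.7, 34.5 and 53.1 CPM in B6, 13.8, 28.2 and 70.3 in C5, 16.4, 33.5 and 42.3 in C5F1, 24.0, 27.8 and 45.4 in C1_5F1, 8.13, 21.2 and 48.0 in B6xPWD, and 9.84, 15.0 and 26.4 in PWD.

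Within B6xPWD the 9 libraries were spread unevenly over cluster B, and not by tissue. The cluster B sum was 8.13 CPM in wild type 11_3, 8.62 in Apc Min mucosa 16_5, 8.73 in Apc Min mucosa 18_1 and 11.5 in adenoma 16_6. It was 21.2 in adenoma 18_2, 37.4 in wild type 16_4, 38.8 in adenoma 11_5, 40.2 in wild type 11_4 and 48.0 in Apc Min mucosa 11_6. Each tissue thus held both low and high libraries. Those same 4 libraries were the lowest of the 9 for Hoxb1, Hoxb2, Hoxb3, Hoxb4, Hoxb5, Hoxb6 and Hoxb7, 7 of the 10 members of the cluster, and for 0 members of clusters A, C and D.

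**Figure D3:**
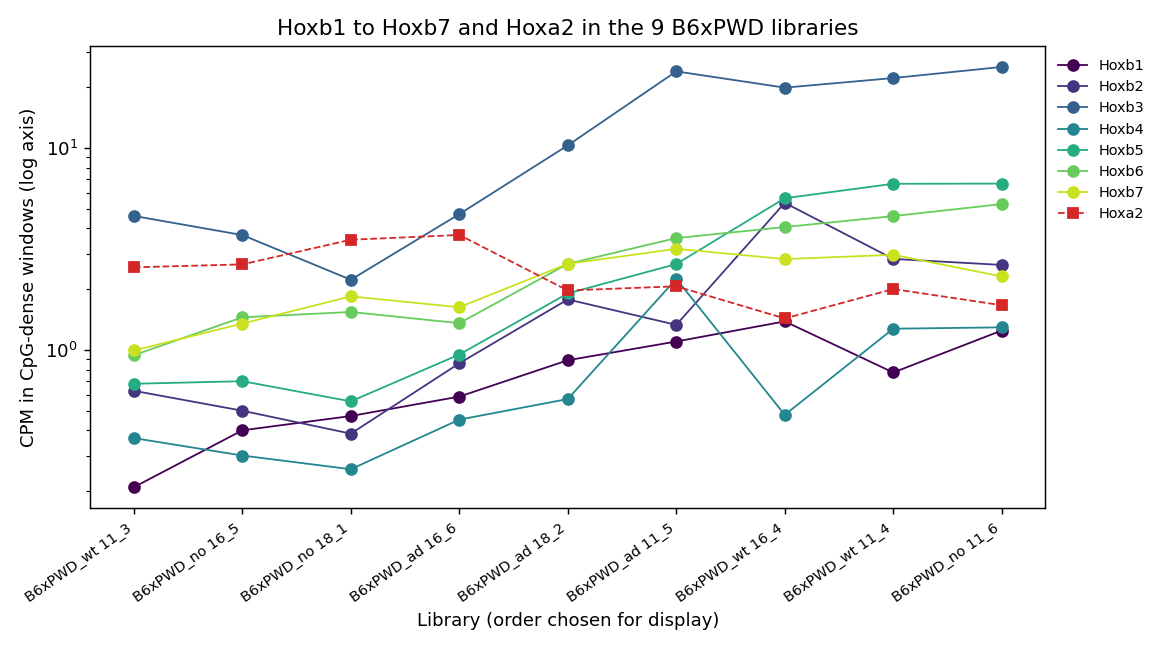
CpG-dense parts of Hoxb1 to Hoxb7 (circles) and of Hoxa2 (squares) in each of the 9 B6xPWD libraries (vertical axis, CPM, log scale; horizontal axis, libraries in an order chosen for display). Libraries 11_3, 16_5, 18_1 and 16_6 hold the lowest values for Hoxb1 to Hoxb7, for Hoxb5 between 0.557 and 0.950 CPM against 1.91 to 6.66 in the other libraries.

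Hoxb5, a gene of the neural crest that forms the enteric nervous system, had 0.557 CPM in 18_1, 0.681 in 11_3, 0.701 in 16_5 and 0.950 in 16_6. In the other libraries it had 1.91 (18_2), 2.66 (11_5), 5.64 (16_4), 6.65 (11_4) and 6.66 (11_6). The step from the fourth to the fifth library was 2.01 times. Hoxb3, a hindbrain and pharyngeal gene, had 2.23, 4.61, 3.71 and 4.71 CPM in the same 4 libraries and 10.3, 23.9, 19.9, 22.2 and 25.2 in the others, a step of 2.19 times. Hoxb2 had 0.386, 0.629, 0.501 and 0.860 against 1.78, 1.33, 5.35, 2.82 and 2.64. For Hoxb4 the step was only 1.06 times. CpG-dense windows over the genome took 5.11% to 6.07% of all counts in the 4 libraries and 5.54% to 6.29% in the other 5, so the ranges overlapped. The part of this share in the difference was not tested. Since the libraries were told apart by their cluster B values, no test between them is given.

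A further description, chosen after its values were seen, concerns the opposite order of Hoxa2 and Hoxb5. The 5 B6xPWD libraries with the lowest CpG-dense Hoxa2 values were the 5 with the highest Hoxb5 values. Of the 5 lowest for Hoxa2, 4 were among the 5 highest for Hoxb5 in the 12 B6 libraries, 4 in the 9 of C5F1 and 2 in the 9 of C5.

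Adenomas were compared with the normal mucosa of Apc Min mice to ask which Hox genes change methylation in the tumour. Over the 5 strains with both tissues, edgeR's quasi-likelihood test with Benjamini-Hochberg adjustment called 0 of 38 Hox gene regions at an adjusted p of 0.05, where 0.0151% of all gene regions were called. Of the members, 2 had an unadjusted p below 0.05, as did 595 of all 19909 gene regions. DESeq2 called 0 members, but it gave an adjusted p to only 4084 of all gene regions. A member left without one could not be called, and how many were is not given here. For the CpG-dense parts edgeR called 0 of 35, where 0.178% of all genes were called, and DESeq2 called 0. An unadjusted p below 0.05 was reached by 2 members and by 534 of all 11249 genes. In single windows edgeR called 0 of the 237 Hox windows tested, where 0.000768% of all windows were called, and limma called 0. Unadjusted, 17 Hox windows had a p below 0.05, as did 46276 of all 1172069 windows. The median log2 difference of the Hox gene regions was 0.04, with 23 of 38 above 0. The lowest p in the gene regions belonged to Hoxa2, higher by 0.27 ± 0.10 (SE, log2, adjusted p = 1), followed by Hoxd12, higher by 0.41 ± 0.19 (adjusted p = 1). In the CpG-dense parts they belonged to Hoxa2, at 0.31 (adjusted p = 0.832), and to Hoxb6, at -0.54 (adjusted p = 0.893).

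In B6 alone, Hoxa2 was the 1 member that passed. Its CpG-dense part had 1.73, 2.98, 3.14, 3.50 and 3.72 CPM in the 5 adenomas and 1.26, 1.51 and 1.54 CPM in the 3 Apc Min mucosa libraries. The groups did not overlap, and the difference was 1.05 ± 0.24 on the log2 scale (SE, edgeR quasi-likelihood test, adjusted p = 0.0391), the 1 call among 35 members, where 0.249% of all genes were called. The wild-type B6 libraries, with 1.90, 2.80, 2.84 and 3.06 CPM, lay within the range of the adenomas and above that of the Apc Min mucosa; B6 mucosa of the 2 genotypes was not tested alone. The call was lost when any of the 3 mucosa libraries was left out (adjusted p from 0.171 to 0.367), when any of the 4 higher adenomas was left out, and with library totals in place of TMM (adjusted p = 0.397); over all alternatives the adjusted p ranged from 0.00646 to 0.397. In the gene regions edgeR called 0 of 38 members in B6, where 0.0251% of all were called. An unadjusted p below 0.05 was reached by 3 members and by 514 of all 19909 gene regions. DESeq2 called 1 member, as did edgeR without adenoma 10_2. That 1 was again Hoxa2, with a log2 difference of 0.93 ± 0.20 and an adjusted p of 0.0707 in edgeR and 0.00956 in DESeq2. Its gene region had 5.17, 8.52, 8.54, 8.59 and 9.49 CPM in the adenomas and 3.30, 4.05 and 5.32 in the Apc Min mucosa.

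In the other strains the CpG-dense Hoxa2 difference was 0.00 (B6xPWD), 0.22 (C5), 0.08 (C5F1) and 0.18 (C1_5F1). A test of whether the 5 within-strain differences were equal gave an unadjusted p of 0.0281 and an adjusted p of 1 for this gene, so a strain difference in the adenoma effect was not established. That test called 0 of 38 gene regions and 0 of 35 CpG-dense parts, with 1 and 3 at an unadjusted p below 0.05 and 0 by DESeq2. Over all genes it called 0% at both levels. Unadjusted, 184 of 19909 gene regions and 294 of 11249 CpG-dense parts had a p below 0.05. In B6 the 10 epithelial markers tested in CpG-dense parts had a median log2 difference of -0.32 between adenoma and Apc Min mucosa, with 3 of 10 above 0 and 0 called. The part of cell composition in the Hoxa2 difference was not tested.

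No Hox member was called in the adenomas of the other 4 strains. In B6xPWD edgeR called 0 of 38 gene regions, with 6 at an unadjusted p below 0.05, and 0 of 35 CpG-dense parts, with 8. Among all genes 392 of 19909 gene regions and 552 of 11249 CpG-dense parts had such a p. DESeq2 called 0 at both levels, and the shares called over all genes were 0% and 0.00889%. Without adenoma 16_6, edgeR called 1 CpG-dense part, in a refit whose share over all genes is not given here. The lowest p in the gene regions were those of Hoxa6 (1.17 ± 0.42) and Hoxd12 (1.03 ± 0.40). Hoxd12, a digit gene, had 0.827, 0.991 and 1.19 CPM in the adenomas and 0.375, 0.532 and 0.544 in the mucosa, without overlap. Hoxa6 had 6.92 ± 7.30 CPM in the adenomas against 3.11 ± 0.914 in the mucosa (SD, n = 3 each). One adenoma, 11_5, had 15.3 CPM, and without it the difference turned to -0.22. In the CpG-dense parts the lowest p were those of Hoxc6 (1.00, adjusted p = 0.736) and Hoxa6 (1.28 ± 0.46, adjusted p = 0.759, and -0.77 without 11_5). In single windows 0 of 237 were called, as were 0% of all windows, with 20 Hox windows at an unadjusted p below 0.05 and 0 by limma. Of all 1172069 windows, 36466 had an unadjusted p below 0.05.

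In C5, C5F1 and C1_5F1 edgeR and DESeq2 each called 0 Hox members at both levels, where 0% of all genes were called. At an unadjusted p below 0.05 stood 0 members, except for 1 CpG-dense part in C5F1, that of Hoxd1, a gene of pain-sensing neurons, with 0.371 CPM in adenoma and 0.0716 in mucosa (1.99 ± 0.71 on the log2 scale). Of all 11249 CpG-dense parts, 406 had such a p in C5F1. The second member by p was Hoxd8, at -0.68. In C5 the lowest p were those of Hoxd1 (0.38) and Hoxd13 (-0.31) in the gene regions, and of Hoxc9 (-0.53) and Hoxb6 (-0.77) in the CpG-dense parts. In C5F1 gene regions they were those of Hoxd10 (0.34) and Hoxb13 (0.39). In C1_5F1, with 2 libraries a group, they were those of Hoxb9 (-0.60) and Hoxa9 (-0.42), and in CpG-dense parts of Hoxb7 (-0.71) and Hoxd4 (-0.50). The median log2 difference of the gene regions was -0.13 in C5, with 6 of 38 above 0, and 0.09 in C5F1, with 25 of 38 above 0.

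One B6xPWD adenoma, 11_5, stood apart over the middle of cluster A, and since it is 1 library its values are given as a description. Its CpG-dense Hoxa6 value was 13.2 CPM, where the other 8 B6xPWD libraries had 0.905 to 2.96, a ratio of 4.47 to the highest of them. Hoxa5 had 12.8 CPM against 2.17 to 3.66 (ratio 3.51), Hoxa4 2.11 against 0.254 to 0.601 (ratio 3.52) and Hoxa3, whose region contains the other 3, 39.3 against 15.9 to 21.4 (ratio 1.84). The Hoxa5 and Hoxa6 values are not separate either. Both include the windows from chr6:52203751 to chr6:52204750, with 2.58, 1.17, 1.51 and 1.26 CPM in 11_5. These windows lie outside the Hoxa6 gene. The 4 members were higher in 11_5 than in any other of the 46 libraries. The highest of the other 45 were 7.72 CPM for Hoxa6, 8.54 for Hoxa5, 1.30 for Hoxa4 and 27.1 for Hoxa3. Summed over cluster A, the CpG-dense windows of 11_5 held 45.3 CPM, 1.67 times the highest of the other B6xPWD libraries. The whole gene regions gave ratios of 3.69 (Hoxa6), 2.88 (Hoxa4), 2.64 (Hoxa5) and 1.68 (Hoxa3).

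Members outside that stretch were closer to the other libraries. Next by ratio in the CpG-dense parts came Hoxb4, with 2.25 CPM against 0.257 to 1.30 (ratio 1.74), then Hoxc6 (1.22), Hoxd9 (1.22), Hoxb7 (1.07), Hoxc8 (1.06) and Hoxb3 (0.951). In the gene regions Hoxb4 (1.53), Hoxc6 (1.27), Hoxd9 (1.26), Hoxa10 (1.20), Hoxc13 (1.08) and Hoxb7 (1.05) followed. Other members were low in the same adenoma: Hoxa9 had 0.0919 CPM, the lowest of all 46 libraries, against 0.300 to 0.699, Hoxd3 had 11.9 against 22.5 to 28.6, and Hoxd4 5.60 against 7.91 to 11.4. In all, 4 of 35 CpG-dense parts and 3 of 38 gene regions lay below the lowest of the other 8 libraries, where 13.6% and 13.4% of all genes did, so the low members were no more than the background. Of the Hox gene regions 11 of 38 (28.9%) lay above the highest of the other 8 libraries, where 12.5% of all gene regions did, and 3 lay above 2 times that value, where 31 of 19909 (0.156%) did. In the CpG-dense parts 9 of 35 (25.7%) lay above it, against 14.8% of all, and 3 above 2 times, against 136 genes (1.21%). At both levels these 3 were Hoxa4, Hoxa5 and Hoxa6, and the regions of Hoxa5 and Hoxa6 share windows.

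**Figure D4:**
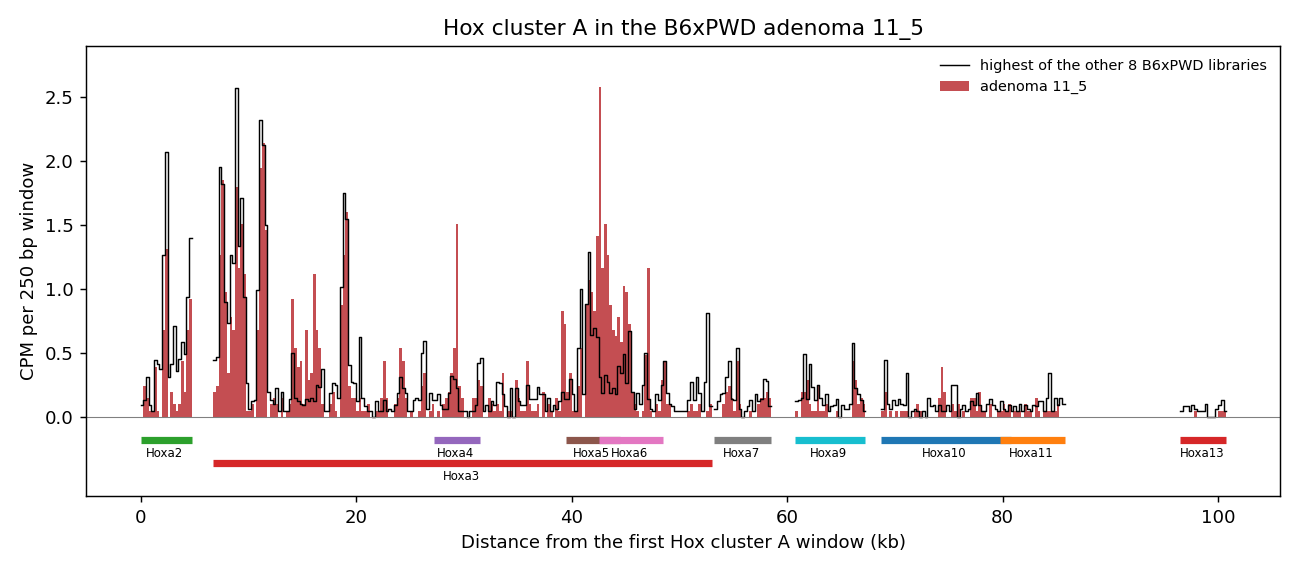
Captured methylation of single 250 bp windows along cluster A (horizontal axis, distance in kb from its first window; vertical axis, CPM) in adenoma 11_5 (bars), with the highest of the other 8 B6xPWD libraries as a line and the member regions drawn below. The bars exceed the line in separate places within Hoxa3 to Hoxa6, by up to 8.96 times, and not evenly along the cluster.

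The high windows were not spread evenly over the cluster. Among the 42 Hox windows with at least 1 CPM in 11_5, 17 lay above the highest of the other 8 libraries and 9 above 2 times that value, and all 9 were in cluster A. The 42 were picked by their level in 11_5 itself, which favours windows high in it. No share over all windows was counted, so these numbers are a description only. Of these 9, 5 adjoined each other in a run from chr6:52203501 to chr6:52204750. The highest ratios were 8.96 at chr6:52177251-52177500 within Hoxa3, 8.47 at chr6:52208251-52208500 within Hoxa6 and 8.25 at chr6:52203751-52204000 within Hoxa5. The last of these had 2.58 CPM (53 counts) against at most 0.312 in the other 8 libraries, and 2 counts in the input library of the same adenoma. The window over the Hoxa4 gene at chr6:52190501-52190750 had a ratio of 6.69. The next 3 windows of the run, from chr6:52204001 to chr6:52204750, had 6.23, 4.60 and 4.59, and they reach the Hoxa5 promoter printed above. The other 2 of the 9 were chr6:52203501-52203750, where the run begins (2.26), and chr6:52206001-52206250 in Hoxa6 (2.07). Over that promoter 11_5 had 4.28 CPM per kb, where the other 8 B6xPWD libraries had 0.0937 to 0.735. The promoter of Hoxa6, a gene of the trunk skeleton, is shown for contrast, since 11_5 was not high there.
Hoxa6 promoter, chr6:52208623-52208922, minus strand: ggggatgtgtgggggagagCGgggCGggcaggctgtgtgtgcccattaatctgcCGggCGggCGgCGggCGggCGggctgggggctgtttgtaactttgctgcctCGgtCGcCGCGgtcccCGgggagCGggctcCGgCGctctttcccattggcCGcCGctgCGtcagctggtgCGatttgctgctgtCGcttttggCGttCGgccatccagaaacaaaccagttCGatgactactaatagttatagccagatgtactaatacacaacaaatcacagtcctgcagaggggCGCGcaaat
It holds 26 CG, as many as 16.9% of all promoters or more, and carried 0.0973 CPM per kb in 11_5, within the 0 to 0.198 of the other 8 libraries and near the 0.0893 of B6 wild type. In the input library of 11_5, where the DNA was sequenced without capture, Hox gene regions had 0.225 to 0.764 CPM per kb with a median of 0.571, against 0.493 for all gene regions, and Hoxa3, Hoxa4, Hoxa5 and Hoxa6 had 0.569, 0.225, 0.764 and 0.523.

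Between Apc Min mucosa and wild-type mucosa no Hox member passed the test. Over the 4 strains with both, edgeR called 0 of 38 gene regions and 0 of 35 CpG-dense parts, and 0% of all genes at either level, with 0 and 3 members at an unadjusted p below 0.05 and 0 by DESeq2. Such a p was reached by 177 of all 19909 gene regions and 192 of all 11249 CpG-dense parts. In single windows edgeR called 0 of 237, as it did 0% of all windows, and limma called 0. Unadjusted, 13 Hox windows had a p below 0.05, as did 29818 of all 1172069 windows. The median log2 difference of the gene regions was 0.01. The lowest p belonged to Hoxb8 (0.19) and Hoxd9 (0.26) in the gene regions and to Hoxc13, a hair and nail gene (-0.66), and Hoxd9 (0.34) in the CpG-dense parts. A missed threshold does not show that the tissues are alike.

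Between strains, PWD and B6 wild-type mucosa were compared to see the effect of the genetic background. PWD reads were aligned to a reference built from C57BL/6, so alleles of the 2 strains were not treated alike by the mapping, and the part of this in the values below was not tested. In single windows, where 19.7% of all windows tested were called, edgeR called 33 of 237 Hox windows (13.9%), 8 higher and 25 lower in PWD. Over all windows 86142 were higher and 144429 lower. The direction differed by cluster: in B 0 windows rose and 19 of 101 fell, in D 0 rose and 4 of 50 fell, in C 3 of 18 rose and 0 fell, and in A 5 rose and 2 fell of 68. Among CpG-dense windows 4 of 115 Hox windows rose and 17 fell (14.8%), against 4.87% and 20.2% of all dense windows, so the Hox share that fell was below the background.

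Hoxb4, a gene known for its role in blood stem cells, fell in PWD at both levels. Its CpG-dense part had 0.537, 0.384 and 0.267 CPM in PWD and 1.77, 1.57, 1.41 and 1.81 in B6. The groups did not overlap, and it fell by 2.01 ± 0.46 on the log2 scale (SE, edgeR quasi-likelihood test, adjusted p = 0.000898), a call kept under all 13 alternatives run. It was 1 of 4 members called in the CpG-dense parts, 2 higher and 2 lower of 35, where 21.5% of all genes were called. Only 2 were called without PWD library 11_1 or 16_9 or B6 library 16_8 or 4_4. The gene region had 2.00, 1.15 and 1.40 CPM against 3.03, 2.84, 2.63 and 3.38 and fell by 0.96 ± 0.29 (adjusted p = 0.0286), the 1 call among 38 gene regions, where 9.04% of all were called. The region call was kept in 9 of 15 alternatives and was lost with the gene body alone, at -0.49 (adjusted p = 0.533), without PWD library 11_2 or 16_9 and without B6 library 10_1 or 4_5. The promoter, printed with its CG in capitals, lies mostly outside the gene body.
Hoxb4 promoter, chr11:96318017-96318316, plus strand: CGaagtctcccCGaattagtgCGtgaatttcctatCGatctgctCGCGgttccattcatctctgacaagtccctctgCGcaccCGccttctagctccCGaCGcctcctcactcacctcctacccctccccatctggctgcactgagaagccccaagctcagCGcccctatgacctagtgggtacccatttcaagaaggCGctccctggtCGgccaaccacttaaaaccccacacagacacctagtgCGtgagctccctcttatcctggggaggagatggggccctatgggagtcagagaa
It holds 14 CG, as many as 36.3% of promoters or more. Over it B6 wild type had 1.24 ± 0.430 CPM per kb (SD, n = 4), PWD 0.163 ± 0.0797 and B6xPWD 0.833 ± 0.752 (SD, n = 3 each). The window that starts the promoter, chr11:96318001-96318250, and the one before it, chr11:96317751-96318000, were lower in PWD, with log2 differences of -2.999 and -3.028 (adjusted p = 0.00114 and 0.000834).

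Of the other 3 members called in PWD, Hoxb5 fell and Hoxc4 and Hoxd1 rose in the CpG-dense parts. Hoxb5 had 1.18, 0.768 and 0.979 CPM in PWD against 1.89, 4.44, 4.52 and 3.03 in B6, without overlap, and fell by 1.76 ± 0.66 (adjusted p = 0.049, kept in 5 of 14 alternatives, adjusted p from 0.026 to 0.135). Hoxd1 had 0.465, 0.288 and 0.401 CPM against 0.118, 0.0683, 0.0973 and 0.222, also without overlap, and rose by 1.48 ± 0.55 (adjusted p = 0.0446, kept in 3 of 12 alternatives, up to 0.192). Hoxc4, a gene of the neck and of lymphocytes, had 3.72, 0.912 and 3.87 CPM against 1.42, 0.751, 0.973 and 1.59. The groups overlapped, since PWD library 11_2 lay within the B6 range, and the rise was 1.22 ± 0.32 (adjusted p = 0.00334). It was lost without PWD library 11_1 (adjusted p = 0.0638) and without the libraries of number 16 (adjusted p = 0.0622).

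Of the 5 windows with the lowest p that fell in PWD, 4 belonged to Hoxb3. They were chr11:96326251-96326500 (by 2.11 ± 0.41, 0.227 CPM in PWD and 1.02 in B6, adjusted p = 5.53e-05), chr11:96348501-96348750 just past the end of the gene (by 2.36, adjusted p = 0.000277), chr11:96336001-96336250 (by 2.95, adjusted p = 0.000354) and chr11:96345501-96345750. In the last, all 3 PWD libraries had 0 counts, while B6 had 0.193 to 0.803 CPM with a mean of 0.415, at least 9.68-fold higher when set against a floor of 3 counts over the PWD group (0.0428 CPM, adjusted p = 0.000773). Outside cluster B a Hoxd3 window at chr2:74740501-74740750 fell by 2.77 (adjusted p = 0.00046). Of the 8 windows that rose, the 5 with the lowest p were 2 of Hoxc4, at chr15:103027001-103027250 (2.45, adjusted p = 0.000619, groups overlapping) and chr15:103027501-103027750 (1.68, adjusted p = 0.0154), and 3 of cluster A. These were chr6:52209501-52209750 inside the Hoxa3 gene, before Hoxa6 (1.78, adjusted p = 0.00512), chr6:52172751-52173000 in Hoxa3 (1.16, adjusted p = 0.00628) and chr6:52216501-52216750 in Hoxa7 (1.24, adjusted p = 0.0171).

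**Figure D5:**
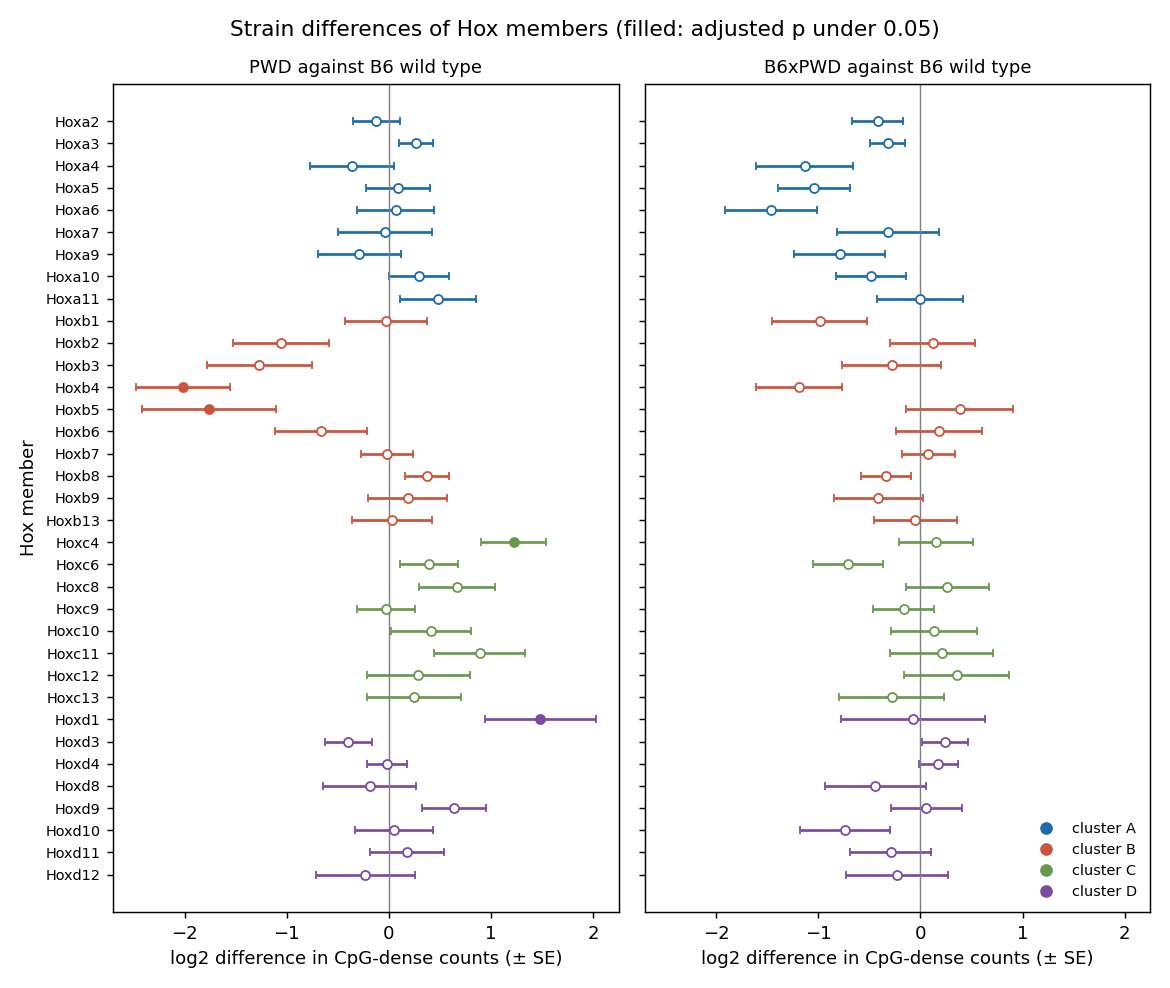
Log2 differences of the CpG-dense parts of the Hox members from B6 in wild-type mucosa (horizontal axis, ± SE), with PWD on the left and B6xPWD on the right, coloured by cluster and filled where called. Of the 4 filled points in PWD, Hoxb4 (-2.01) and Hoxb5 (-1.76) lie below 0 and Hoxc4 (1.22) and Hoxd1 (1.48) above it, and 0 points are filled in B6xPWD.

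The B6xPWD mice, with 1 set of clusters from each parent, were compared with B6 in wild-type mucosa and, over other libraries, in Apc Min tissue. In wild type edgeR called 0 of 38 gene regions, with 5 at an unadjusted p below 0.05 and 0 by DESeq2, where 1.02% of all were called. It called 0 of 35 CpG-dense parts, with 6 and 0, where 3.64% were called, and called 2 without B6 library 10_1 and 1 without B6xPWD library 11_4. Shares over all genes in these refits are not given here. With all libraries, 1607 of 19909 gene regions and 1715 of 11249 CpG-dense parts had an unadjusted p below 0.05. Members lay mostly below B6: the median log2 difference was -0.24 in the gene regions, with 7 of 38 above 0, and -0.28 in the CpG-dense parts, with 12 of 35 above 0. For all genes the medians were -0.01 and 0.00. Markers of epithelial cells lay mostly below B6 too. In the CpG-dense parts, 3 of 10 lay above 0, 1 fell and their median was -0.70, while 4 of 7 immune markers and 5 of 8 stromal and vessel markers lay above 0 with 0 called in either list; their part in the Hox values was not tested.

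The lowest p belonged to Hoxa6, with 1.89, 1.37 and 2.44 CPM in CpG-dense windows of B6xPWD wild type against 3.15, 7.72, 6.76 and 3.99 in B6. The groups did not overlap, and the difference was -1.47 ± 0.45 (adjusted p = 0.0567). PWD, the other parent, had 6.34, 4.56 and 5.47 CPM, so the F1 lay below both parents in every library. Hoxa5 showed the same order, with 2.83, 2.51 and 2.82 CPM in B6xPWD, 3.11, 8.54, 7.29 and 4.25 in B6 and 5.55, 5.76 and 6.63 in PWD (-1.04, adjusted p = 0.0973 against B6). Its region shares windows with that of Hoxa6, so the 2 members are not separate observations. B6xPWD was not tested against PWD. In the gene regions Hoxa6 (2.47 against 6.08 CPM, -1.29 ± 0.41, adjusted p = 0.164) and Hoxb4 (-0.90, adjusted p = 0.176) came first. With the label number as a factor in the model, edgeR called 5 CpG-dense parts, those of Hoxa3, Hoxa4, Hoxa5, Hoxa6 and Hoxb4, and 2 gene regions, Hoxa6 and Hoxb4. Over all genes that fit called 176 of 11249 CpG-dense parts and 829 of 19909 gene regions. B6 shared only number 16 with other strains, through wild-type library 16_8, so the strain difference in that fit rests on that library. Among B6 wild-type libraries 16_8 had the highest CpG-dense values of Hoxa3, Hoxa4, Hoxa5 and Hoxa6, but not of Hoxb4. That rank depends on the scaling. On the scale of the cluster sums, 16_8 had the lowest CpG-dense total of cluster A, 21.24 CPM against 23.08, 28.57 and 30.09.

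In single windows of wild-type mucosa, where 1.36% of all windows were called (11795 higher, 4144 lower), 5 of 237 Hox windows fell and 0 rose in B6xPWD. They were chr11:96317501-96317750 before Hoxb4 (by 2.30, adjusted p = 0.00663), chr11:96320751-96321000 in Hoxb4 (by 3.34, adjusted p = 0.0104), chr6:52201001-52201250 behind Hoxa5 (by 4.03, adjusted p = 0.0188), chr11:96366251-96366500 in Hoxb1 (by 2.95, adjusted p = 0.023) and chr11:96312501-96312750 in Hoxb3 (by 2.67, adjusted p = 0.0301). Thus 4 were in cluster B and 1 in cluster A. With the label number as a factor in edgeR the 4 cluster B calls were lost, and the cluster A call was kept. For the first 2 windows the adjusted p was then 0.162 and 0.124. The calls in Hoxb1 and Hoxb3 were lost with limma as well, and the groups overlapped at the Hoxb1 window. The spread fitted over all libraries enters this test, and without adenoma 11_5 it called 11. The share of all windows called in that refit is not given here.

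In Apc Min tissue, the mean over adenoma and mucosa, 1 gene region and 2 CpG-dense parts fell in B6xPWD, where 3.21% and 8.06% of all genes were called. Hoxb2, a gene of facial motor neurons, had 1.33, 0.860 and 1.78 CPM in B6xPWD adenomas and 2.64, 0.501 and 0.386 in the mucosa. B6 had 1.55, 2.92, 3.18, 1.87 and 1.88 in adenomas and 4.22, 3.45 and 3.12 in the mucosa. The ranges overlapped and it fell by 1.21 ± 0.34 (adjusted p = 0.0196). The call was lost without any 1 of 16_5, 18_1 and 16_6 (adjusted p = 0.0695, 0.0877 and 0.066), the low cluster B libraries of that tissue, and without 11_6 the fall was 1.91 (adjusted p = 0.00058). Hoxa9 had 0.0919, 0.407 and 0.699 CPM in B6xPWD adenomas and 0.324, 0.301 and 0.300 in the mucosa, against 0.331 to 0.942 over the 8 B6 libraries, and fell by 1.01 ± 0.32 (adjusted p = 0.0381). It was kept in 6 of 20 alternatives and was lost without adenoma 11_5 (adjusted p = 0.137) or 11_6 (adjusted p = 0.0619). In the gene regions Hoxd8 had 0.975 to 1.83 CPM in B6xPWD and 1.15 to 2.61 in B6 and fell by 0.56 ± 0.15 (adjusted p = 0.0253, and 0.0119 without 11_6). That call was lost without adenoma 11_5, mucosa 18_1, B6 adenoma 4_1 or B6 mucosa 9_2. Without 11_6 edgeR called 5 gene regions and 5 CpG-dense parts. The shares of all genes called in that refit are not given here.

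In single windows 19 of 237 Hox windows were called (8.02%), a share near the 6.16% of all windows called. Windows were not refitted without 11_6. Over all windows 42587 rose and 29568 fell. Of the 19 Hox windows, 3 rose and 16 fell, and 14 of the 16 were among the 101 cluster B windows tested. The first by p were chr11:96348501-96348750 past the end of Hoxb3 (by 1.43, adjusted p = 0.00172), chr11:96317751-96318000 just before the Hoxb4 promoter (by 1.81, adjusted p = 0.00918), chr6:52206501-52206750 in Hoxa6 (by 1.32, adjusted p = 0.0121), chr11:96323251-96323500 in Hoxb3 (by 1.16, adjusted p = 0.0143) and chr11:96354751-96355000 within 1 kb of Hoxb2 (by 1.60, adjusted p = 0.0171). The 3 that rose were in Hoxa3, at chr6:52172751-52173000 (0.75, adjusted p = 0.0272), chr6:52202501-52202750 in Hoxa5 (0.81, adjusted p = 0.0297) and chr6:52168751-52169000 (0.85, adjusted p = 0.035). The calls at chr6:52202501-52202750, chr6:52168751-52169000 and chr11:96354751-96355000 were lost without adenoma 11_5. That at chr6:52172751-52173000 was lost with limma. With the label number as a factor 0 of the 19 windows and 0 members were called. In Apc Min tissue the B6 libraries share no label number with those of B6xPWD or C5, so number and strain cannot be told apart there.

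The C5 and C5F1 mice carry the C57BL/6 Hox clusters, so a difference from B6 here is not one of the Hox alleles by label. In wild type edgeR called 0 of 38 gene regions in C5, where 0.417% of all were called, with 8 at an unadjusted p below 0.05 and 1 by DESeq2, and 0 of 35 CpG-dense parts, where 1.07% were called, with 6 and 0. An unadjusted p below 0.05 was found for 2184 of all 19909 gene regions and 1550 of all 11249 CpG-dense parts. Without C5 library 16_1 edgeR called 3 gene regions and 2 CpG-dense parts, and without B6 library 16_8 or 4_5 it called 1 gene region. For these refits the shares over all genes are not given here. The members lay mostly above B6, with a median of 0.32 and 30 of 38 above 0 in the gene regions, against a median of 0.01 over all genes, and 0.30 and 26 of 35 in the CpG-dense parts. The first by p was Hoxc9, a gene of thoracic motor neurons, with 3.74, 5.84 and 6.10 CPM in C5 and 2.53, 3.08, 3.38 and 3.94 in B6. The groups overlapped at 1 library of each, and the difference was 0.70 ± 0.17 (adjusted p = 0.0527 in edgeR and 0.0236 in DESeq2). Hoxa7 followed (0.62, adjusted p = 0.132), and in the CpG-dense parts Hoxd4 (0.52, adjusted p = 0.21) and Hoxd8 (1.08, adjusted p = 0.214). In windows, where 0.731% of all were called, 1 of 237 rose, chr6:52216501-52216750 in Hoxa7 (1.51, adjusted p = 0.0427, groups overlapping).

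In Apc Min tissue of C5, 2 gene regions and 1 CpG-dense part rose, where 1.63% and 1.3% of all genes were called. Hoxa2 had 3.61, 4.07 and 4.54 CPM in CpG-dense windows of C5 adenomas and 3.37, 3.48 and 3.58 in the mucosa, against 1.26 to 3.72 over the 8 B6 libraries, with which both ranges overlapped. It rose by 0.86 ± 0.17 (adjusted p = 0.00133, kept in 19 of 21 alternatives). The call was lost with library totals (adjusted p = 0.106) and with the label number as a factor (adjusted p = 1). In wild type the C5 difference of Hoxa2 was -0.01. The 1 Hox window called, where 1.44% of all windows were called, was chr6:52165751-52166000 before Hoxa2 (1.23, adjusted p = 0.00484). Hoxc4 (9.01 against 6.75 CPM, 0.42 ± 0.11, adjusted p = 0.0284, kept in 13 of 22 alternatives) and Hoxc9 (4.51 against 3.28, 0.46 ± 0.13, adjusted p = 0.0452, kept in 8 of 22) rose in the gene regions. Both calls were lost with the label number as a factor (adjusted p = 1 each). For Hoxc9 the 6 C5 libraries, from 3.93 to 5.27 CPM, all lay above the 8 B6 libraries, from 2.34 to 3.855. Without B6 adenoma 10_2 or 2_1, B6 mucosa 4_3 or 9_2, C5 adenoma 12_5, or C5 mucosa 12_2 or 12_4, 0 gene regions were called.

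In C5F1 wild type edgeR called 0 of 38 gene regions, where 0.0653% of all were called, and 0 of 35 CpG-dense parts, where 0.107% were called, with 1 at an unadjusted p below 0.05 at each level and 0 by DESeq2. Such a p was reached by 781 of all 19909 gene regions and 419 of all 11249 CpG-dense parts. The median log2 difference of the gene regions was 0.15, with 30 of 38 above 0. Hoxa7 (0.41) and Hoxa11 (0.55) came first in the gene regions, and Hoxa11 (0.78) and Hoxa10 (0.58) in the CpG-dense parts. All wild-type strain comparisons share the 4 B6 libraries, and both Apc Min ones share the 8 B6 libraries, so their directions are not independent of each other.

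Genes that work with or on Hox genes were counted in the same fits. Between adenoma and Apc Min mucosa over the 5 strains, edgeR called 0 gene regions and 0 CpG-dense parts in each of these lists: 9 Hox cofactors, 10 Cdx, ParaHox and Hox-linked homeobox genes, 26 Polycomb subunits, 12 Trithorax-type regulators and 81 other homeobox genes. At an unadjusted p below 0.05 stood 1, 0, 1, 1 and 1 of their gene regions, and 595 of all 19909. The lowest p were those of Pknox2, a homeodomain partner of Hox proteins (-0.05), Pdx1, the pancreatic and duodenal ParaHox gene (0.20), Bmi1, a Polycomb subunit (-0.14), Kmt2a, the methyltransferase that maintains Hox expression (0.06), and Barhl1 (0.22), each with an adjusted p of 1. Of the other homeobox genes 56 of 81 lay above 0, with a median of 0.04, against 23 of 38 and 0.04 for the Hox genes. The marker lists, read here as methylation of the marker genes and not as their RNA, also gave 0 calls: 0 of 15 epithelial, 0 of 14 immune and 0 of 14 stromal and vessel gene regions. Slc5a1, the glucose transporter of enterocytes (0.10, adjusted p = 0.492), and Cd68, a macrophage gene (-0.21, adjusted p = 0.909), came closest. These tables hold no RNA, so the labelled tissue could not be checked against marker expression.

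Between PWD and B6 the other lists gave calls in both directions, at or below the 21.5% of all genes in most cases. In the CpG-dense parts 1 of 8 cofactors rose, 1 of 8 Cdx, ParaHox and Hox-linked genes rose, 2 of 18 Polycomb subunits rose and 1 fell, 1 of 8 Trithorax-type regulators fell, and 6 of 78 other homeobox genes rose and 5 fell. Among markers 0 of 10 epithelial genes, 2 of 7 immune genes (both higher) and 3 of 8 stromal and vessel genes (1 higher, 2 lower) were called. The Hox share, 4 of 35, was below the background as well.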

How the data were processed

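MeDIP and input DNA was sequenced from intestinal adenoma and mucosa of 6 strains, per the labels. The submitters' processing notes name BWA as the aligner, without a version, and mm10 as the genome; how reads were filtered and counted is not given. The deposited table holds raw counts per 250 bp window for each library, not normalized, per the file headers. It also holds a CpG density score for each window as deposited by the authors; its scale is not stated, and 420407 of 10535096 windows have none. All 46 MeDIP columns and the 1 input column were matched to samples by name, with 0 columns left over. 1 further MeDIP sample and the other input samples were not analysed here.

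Genes were placed by RefSeq on GRCm38.p6. Window counts were summed over each gene region, and over its windows with a score of 10 or more. Sums were tested with edgeR 4.0.16 (R 4.3.3): filterByExpr with a minimum count of 10, TMM, a quasi-likelihood F test over 15 groups that share 1 estimate of the spread, and Benjamini-Hochberg adjustment over all 19909 gene regions, 11249 CpG-dense parts or 1172069 windows tested, at 0.05. All 38 Hox gene regions, 35 Hox CpG-dense parts and 237 Hox windows passed the filter. For windows the dispersion trend came from every 40th window. DESeq2 1.42.0 and limma 3.58.1 (trend, prior count 2) were alternatives. Others were DESeq2 size factors, no filter, a minimum count of 20, gene bodies alone, 5 kb flanks, a score of 15 or more, the number that opens a library's label as a factor, and each library left out in turn; library totals and the data without the 11 libraries of number 16 were added after seeing the data. The scripts were tested on simulated counts. Depth, 8358806 to 27842607 counts a library, limits single windows most.

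Named members are all those called in a comparison (up to 10), else the 2 of lowest p, the highest and lowest of each cluster, up to 5 windows per direction, and the 10 of highest ratio in adenoma 11_5. The members and all gene lists were chosen with earlier results of these data known.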

Additional observations from a re-analysis of the deposited data

Results flagged for a closer look

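Within groups of 4 or 5 libraries, 3 of 82 checks found 1 library set apart by a gap (Dixon's test), and chance alone flags about 1 in 20 groups. In the B6 adenomas, library 10_2 had 5.17 CPM over the Hoxa2 gene region, while the other 4 adenomas had 8.52 to 9.49. The same adenoma had 4.08 CPM in the CpG-dense part of Hoxa5, where the other 4 had 2.98 to 3.15. Without 10_2, the adenoma difference of Hoxa2 was 1.22 in the CpG-dense part (adjusted p = 0.00646) and 1.06 in the gene region (adjusted p = 0.0375). In wild-type B6 mucosa, library 4_5 had 0.997 CPM in the CpG-dense part of Hoxa9, and the other 3 had 0.434 to 0.486.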

How the results depend on the processing

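Counts of Hox calls moved with several settings; the cause was not tested. With the label number in the model they were, for gene regions, 1 in B6 adenomas (0 otherwise), 2 for B6xPWD wild type (0), 0 for B6xPWD Apc Min (1) and 0 for C5 Apc Min (2), and for CpG-dense parts 5 (0), 0 (2) and 0 (1) in the last 3. In windows they were 0 for C5 wild type (1), 0 for B6xPWD Apc Min (19) and 0 for C5 Apc Min (1). Without the 11 libraries of number 16, gene regions gave 1 in B6 adenomas, 0 for PWD (1) and 4 for C5 wild type (0), and CpG-dense parts 1 for PWD (4), 2 for C5 wild type (0), 1 for B6xPWD Apc Min (2) and 2 for C5 Apc Min (1). Library totals gave 1 gene region for C5 wild type and 0 for C5 Apc Min, and CpG-dense parts 0 in B6 adenomas (1), 2 for PWD, 0 for B6xPWD Apc Min and 0 for C5 Apc Min. They shifted the median of all CpG-dense parts by -0.20 (C5 Apc Min), -0.15 (B6xPWD wild type), -0.12 (C5F1), 0.14 (B6 adenomas) and 0.14 (C1_5F1 adenomas). DESeq2 gave gene regions 1 in B6 adenomas, 1 for C5 wild type and 2 for B6xPWD Apc Min (1), and 1 CpG-dense part for B6xPWD Apc Min. Gene bodies alone gave 0 for PWD, 0 for B6xPWD Apc Min and 1 for C5 Apc Min; 5 kb flanks gave 2 for C5 wild type and 3 for B6xPWD Apc Min. No filter gave 0 in B6 adenomas, and a score of 15 or more 0 there and 1 for B6xPWD wild type. A minimum count of 20 gave 14 windows for PWD (33), 0 for B6xPWD wild type (5), 0 for C5 wild type, 8 for B6xPWD Apc Min and 2 for C5 Apc Min; limma gave 0 for C5 wild type. A score of 15 or more set cluster C at 0.193 CPM per kb (0.274 otherwise) and the 11_5 ratio of cluster A at 2.02 (1.67). The Hoxa6 adenoma difference in B6xPWD ranged from -0.22 (without 11_5) to 1.62 in the gene region and from -0.77 (without 11_5) to 1.80 in the CpG-dense part, and CpG-dense Hoxa10 in C5F1 wild type reversed to -0.43 with the label number.

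Leaving out 1 library at a time, gene region calls ranged from 0 to 1 in B6 adenomas and PWD, 0 to 3 for C5 wild type and C5 Apc Min, and 0 to 5 for B6xPWD Apc Min. CpG-dense calls ranged from 0 to 1 in B6 and B6xPWD adenomas, 2 to 4 for PWD, 0 to 2 for B6xPWD and C5 wild type, 0 to 5 for B6xPWD Apc Min and stayed at 1 for C5 Apc Min. The other gene-level counts stayed at 0. Shares over all genes are not given for these refits, nor for the fits without number 16. Windows were refitted only without 11_5, with 31 calls for PWD, 11 for B6xPWD wild type, 1 for C5 wild type, 22 for B6xPWD Apc Min and 1 for C5 Apc Min. Cluster means ranged from 0.885 to 0.908 CPM per kb (A), 1.05 to 1.10 (B), 0.269 to 0.277 (C) and 1.06 to 1.09 (D). Of the other values for single members or windows, 358 kept direction and side of the threshold, 14 were newly called and 55 lost their call, and leaving out libraries 488, 9 and 60. The label number is shared by libraries of several groups, and the fit with it as a factor, given above, is the blocked analysis. The labels do not say that it pairs libraries. B6 shares only number 16 with other strains, through wild-type library 16_8, so comparisons of B6 with other strains in that fit rest on it.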
